A study of Bos indicus with 5 samples.

Results

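The genes described here encode the ligands, receptors, modulators and transducers of WNT signaling, read by RNA sequencing in Nelore (Bos indicus) cows. The tissue was the ampulla, the wide segment of the oviduct in which fertilization takes place. The genes were chosen by a rule on symbols, which uses no measured value. The rule took every WNT, FZD, DKK, SFRP, RSPO and DVL gene, together with DKKL1, FRZB, WIF1, LRP5, LRP6, LGR4, LGR5, LGR6, AXIN1, AXIN2, APC, GSK3A, GSK3B, the TCF7 group, LEF1, PORCN, WLS, ROR1, ROR2, RYK, ZNRF3 and RNF43. It found 68 entries with 67 symbols among the 24616 genes of the table, since GSK3B had 2 entries. Of the 68 entries, 57 had a mean of over 5 normalized reads and were tested, and 11 were not.

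All animals were multiparous, non-lactating cows that received an intravaginal progesterone device (1 g) and 2 mg of estradiol benzoate on day -10, a prostaglandin F2α analog at device removal and again 6 h later, and a GnRH agonist on day 0 to induce ovulation. In 2 cows, named LF/LCL for a large follicle and large corpus luteum, the device was removed 42 h before GnRH and the prostaglandin analog was also given on day -10. In 3 cows, named SF/SCL for small ones, the device was removed 30 h before GnRH. Tissue covering the whole thickness of the ampulla wall was taken on day 4 from the side that had ovulated, and the study had sequenced the cows ranked at the ends of its follicle, corpus luteum and hormone measures, so that these libraries are selected animals.

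WNT proteins are secreted lipid-modified ligands that bind Frizzled receptors together with LRP5 or LRP6. Binding recruits Dishevelled and disables the destruction complex of AXIN, APC and GSK3, so that β-catenin accumulates and acts with TCF and LEF proteins on transcription, while other WNT signals use ROR or RYK receptors and act on cell polarity and movement. R-spondins, through LGR receptors, hold back the ligases ZNRF3 and RNF43, which remove Frizzled from the cell surface. SFRP, FRZB and WIF1 bind the ligand, and DKK1 blocks the co-receptor. In the female tract this pathway patterns the Müllerian duct and takes part in epithelial renewal.

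The libraries held between 13418278 and 19592174 reads assigned to genes. Values are normalized reads, that is, read counts divided by a size factor for each library, and they are listed in the order of LF/LCL replicates 1 and 2 and of SF/SCL replicates 1, 2 and 3. As no transcript lengths were at hand, levels were compared between libraries and not between genes. All 7 secretory epithelium markers sought were detected, OVGP1, the oviduct glycoprotein, among them, and so were 14 of the 15 listed ciliated cell markers found in the table, all but PIFO, with at most 2 reads in a library. The summed level of the 12 smooth muscle markers in the table ranged from 75502 to 143355 in LF/LCL and from 19439.7 to 49865 in SF/SCL. All 12 had a higher mean log2 value in LF/LCL, and the groups did not overlap in 10 of them. For this and the next marker lists, the share of all genes tested without overlap was 30.1%. The 10 stromal fibroblast markers had a sum from 39171 to 92426 in LF/LCL cows and from 25185 to 50764 in SF/SCL cows, with 9 higher in LF/LCL and 2 without overlap. The ciliated cell markers had a sum from 68807 to 86666 and from 101561 to 104521, with 14 of 14 tested lower in LF/LCL and 12 without overlap. In whole tissue, more cells of a type and more RNA per cell cannot be told apart.

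Across the pathway, 0 of the 57 entries tested had an adjusted p under 0.05 with limma (Benjamini-Hochberg over all 15815 genes tested, of which 0% were called), the lowest adjusted p being 0.302 for FZD10. An unadjusted p under 0.05 was found for 10 entries (17.5%), beside 11.5% of all genes tested. Of the 10, 8 were higher in LF/LCL and 2 were lower, beside 5.64% and 5.86% of all genes. In all 10 the groups did not overlap, as in 1809 of the 1819 genes with such a p over all genes tested. The groups did not overlap in 19 of the 57 entries (33.3%), beside 30.1% of all genes, with 13 higher in LF/LCL and 6 lower (15% and 15.1% of all genes). The log2 fold change (log2FC, LF/LCL over SF/SCL on the log2(value + 1) scale, given ± SE) was above 0 for 35 entries (61.4%), beside 50.8% of all genes, but for 28 without LF/LCL replicate 1. Its median was 0.11 over the entries and 0.01 over all genes. Without LF/LCL replicate 1 the entries with an unadjusted p under 0.05 numbered 5, of which only FZD1 and WNT11 belonged to the 10. DESeq2 and the edgeR exact test on recovered whole reads both called 2 entries (3.51%), RSPO3 and FZD10, beside 2.89% and 2.12% of all genes, and the edgeR quasi-likelihood test called 0, with 11 at an unadjusted p under 0.05.

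**Figure D1:**
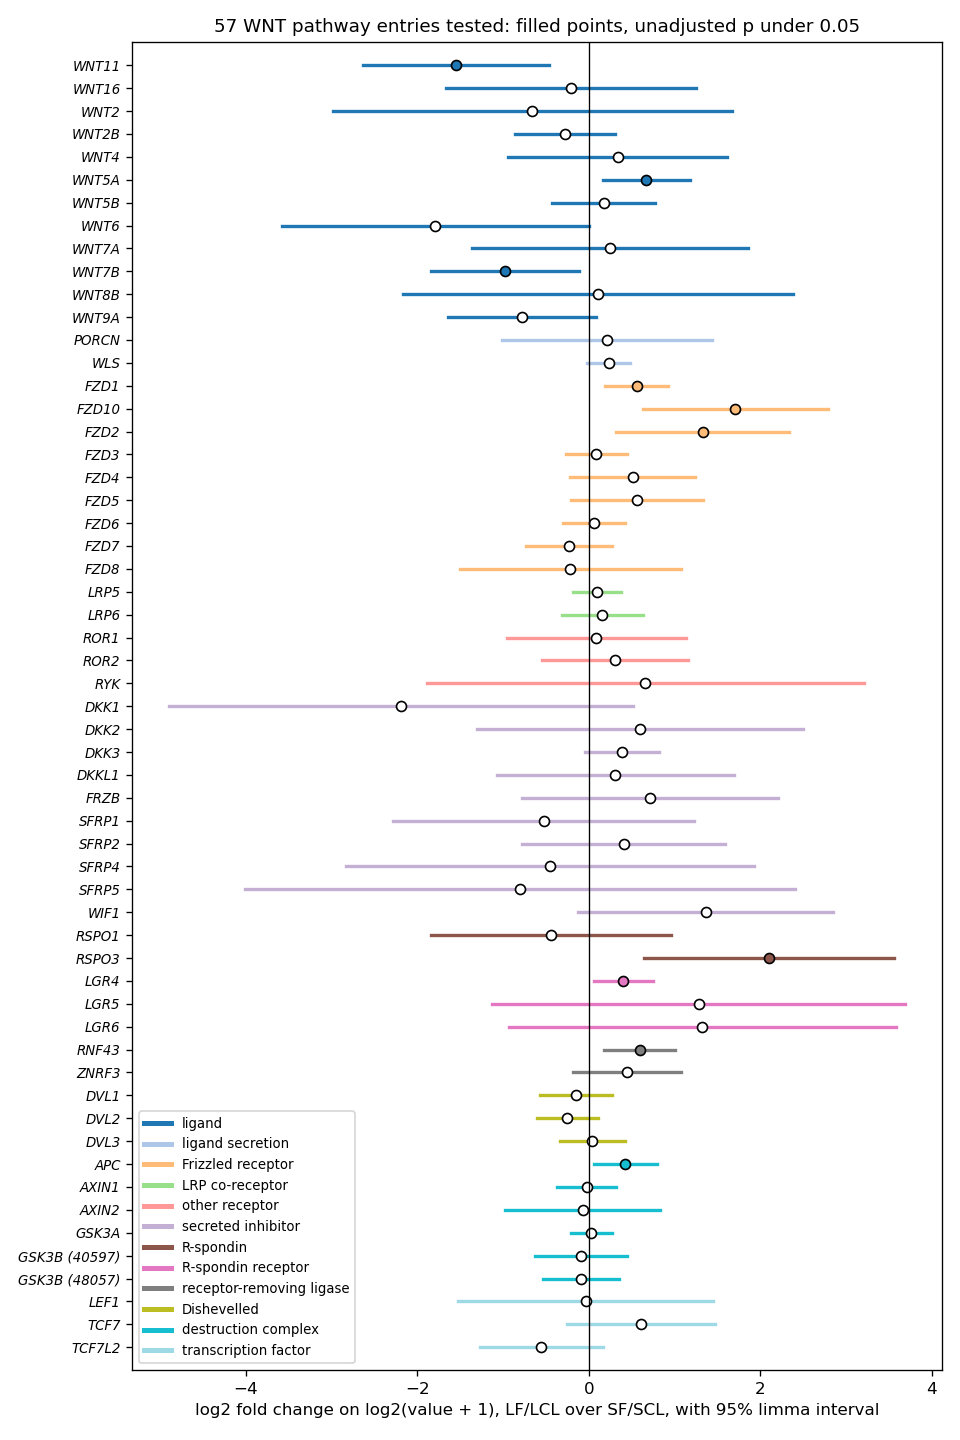
Log2 fold change (points) with its 95% limma interval (lines) for the 57 WNT pathway entries tested, LF/LCL over SF/SCL, on the log2(value + 1) scale, coloured by role. The 10 filled points have an unadjusted p under 0.05; 8 lie to the right of 0 (higher in LF/LCL) and 2, WNT11 and WNT7B, to the left.

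RSPO3 and FZD10 showed the largest ratios between group means among the 8 genes higher in LF/LCL. RSPO3, an R-spondin that strengthens WNT signals at the cell surface, had 342 and 228 normalized reads in the LF/LCL cows and 114, 80.0 and 29.0 in the SF/SCL cows. Both LF/LCL libraries were above all SF/SCL libraries, and SF/SCL replicate 3 was the lowest. The means were 285 ± 80.6 (SD, n = 2) and 74.5 ± 43.0 (SD, n = 3), a ratio of 3.83, and the log2FC was 2.10 ± 0.60, with a limma adjusted p of 0.323. The DESeq2 adjusted p was 0.0268 and the edgeR exact test gave 0.0427. Of the other R-spondins, RSPO1 had 14.1 and 10.6 against 26.0, 10.1 and 18.2 normalized reads, with overlapping groups. RSPO2 and RSPO4 had 0 reads in every library, which allows up to 3 reads in each.

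FZD10, a Frizzled receptor, had 719 and 474 normalized reads in LF/LCL libraries and 266, 209 and 100.9 in SF/SCL libraries. The order of the libraries was that of RSPO3, with SF/SCL replicate 3 again the lowest. Means were 597 ± 173 (SD, n = 2) and 192 ± 83.9 (SD, n = 3), 3.11 times higher in LF/LCL, with a log2FC of 1.71 ± 0.44 and adjusted p-values of 0.302 with limma, 0.0116 with DESeq2 and 0.0178 with the edgeR exact test. RSPO3 and FZD10 kept their direction in all 16 alternative fits, and the log2 fold change ran from 1.54 to 2.51 for RSPO3 and from 1.30 to 2.01 for FZD10 when each library was left out in turn.

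The highest and the lowest library for both genes were also those of the smooth muscle markers. The summed level of these markers was 143355 and 75502 in LF/LCL against 46894, 49865 and 19439.7 in SF/SCL, with SF/SCL replicate 2 above SF/SCL replicate 1, unlike in RSPO3 and FZD10. Ratios to this sum were formed after the values were seen. The sum itself was higher in both LF/LCL libraries. A gene that differs less between the groups than the sum can therefore overlap or reverse by construction. That holds for the ratios of FZD1, FZD2, WNT5A and RNF43 given below, from which no conclusion is drawn. Per 10000 normalized reads of the smooth muscle markers, FZD10 had 50.1 and 62.8 in LF/LCL against 56.8, 41.9 and 51.9 in SF/SCL, and the groups overlapped. RSPO3 had 23.9 and 30.3 against 24.4, 16.1 and 14.9 per 10000, and here too the groups overlapped. Per 10000 reads of the stromal fibroblast markers, which were higher in mean in LF/LCL as well, RSPO3 had 37.1 and 58.3 against 26.7, 31.8 and 5.71, without overlap and higher in LF/LCL, while FZD10 had 77.8 and 121 against 62.2, 83.0 and 19.9, with overlap. Whether the muscle share of the samples had a part in the group difference of either gene was not tested. These markers were likewise higher in both LF/LCL libraries beside each other gene that is described here as higher there.

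The Frizzled family as a whole had 9 members tested, of which 7 had a higher mean log2 value in LF/LCL and 2 a lower one, as under both other scalings and without any 1 library. In 5 of the 9 the groups did not overlap, and all 5 were higher in LF/LCL, beside 30.1% of all genes without overlap and 15% higher in LF/LCL. The sum of all Frizzled reads was 6734 and 6665 normalized reads in LF/LCL against 4982, 5477 and 5020.4 in SF/SCL, and the groups did not overlap. This sum is weighted toward genes with many reads, above all FZD1, whose group means were 2895 and 1985. FZD1, which had the highest mean read count of the family (not corrected for length), had 2886 and 2904 normalized reads in LF/LCL against 1709, 2357 and 1888 in SF/SCL, with both LF/LCL libraries nearly equal and above the SF/SCL range. Its log2FC was 0.56 ± 0.15, with a limma adjusted p of 0.307, and it was 1 of the 2 members of the 10 that kept an unadjusted p under 0.05 in each of the 5 fits without one library, the other being WNT11. Per 10000 reads of the smooth muscle markers FZD1 had 201 and 385 against 364, 473 and 971, and per 10000 of the stromal markers 312 and 741 against 399, 936 and 372, and the groups overlapped in both.

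FZD2 had 231 and 136 normalized reads in the LF/LCL cows and 84.2, 90.9 and 45.1 in the SF/SCL cows, a log2FC of 1.33 ± 0.41, with a limma adjusted p of 0.346. Its 5 libraries stood in the same order as the smooth muscle sum. Per 10000 reads of those markers it had 16.1 and 18.1 in LF/LCL against 17.96, 18.2 and 23.2 in SF/SCL, and the groups overlapped. They also overlapped per 10000 stromal marker reads, at 25.0 and 34.8 against 19.7, 36.1 and 8.88. FZD4 and FZD5 were also higher in both LF/LCL libraries. FZD4 had 258 and 260.4 against 221, 123 and 220 normalized reads, where SF/SCL replicate 2 stood lowest, and FZD5 had 342 and 322 against 281, 275 and 146, where SF/SCL replicate 3 stood lowest. Their log2FC values were 0.51 ± 0.30 and 0.56 ± 0.32, with limma adjusted p-values of 0.571 and 0.551. FZD3 and FZD6 had intervals from -0.27 to 0.44 and from -0.30 to 0.42 on the log2 scale. FZD7, with 664 and 688 normalized reads in LF/LCL libraries and 607, 846 and 967 in SF/SCL libraries, and FZD8, with 57.5 and 27.1 against 42.6, 73.1 and 31.1, had the higher mean in SF/SCL, with overlapping groups. FZD9 had from 1.04 to 3.87 normalized reads and was not tested.

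**Figure D2:**
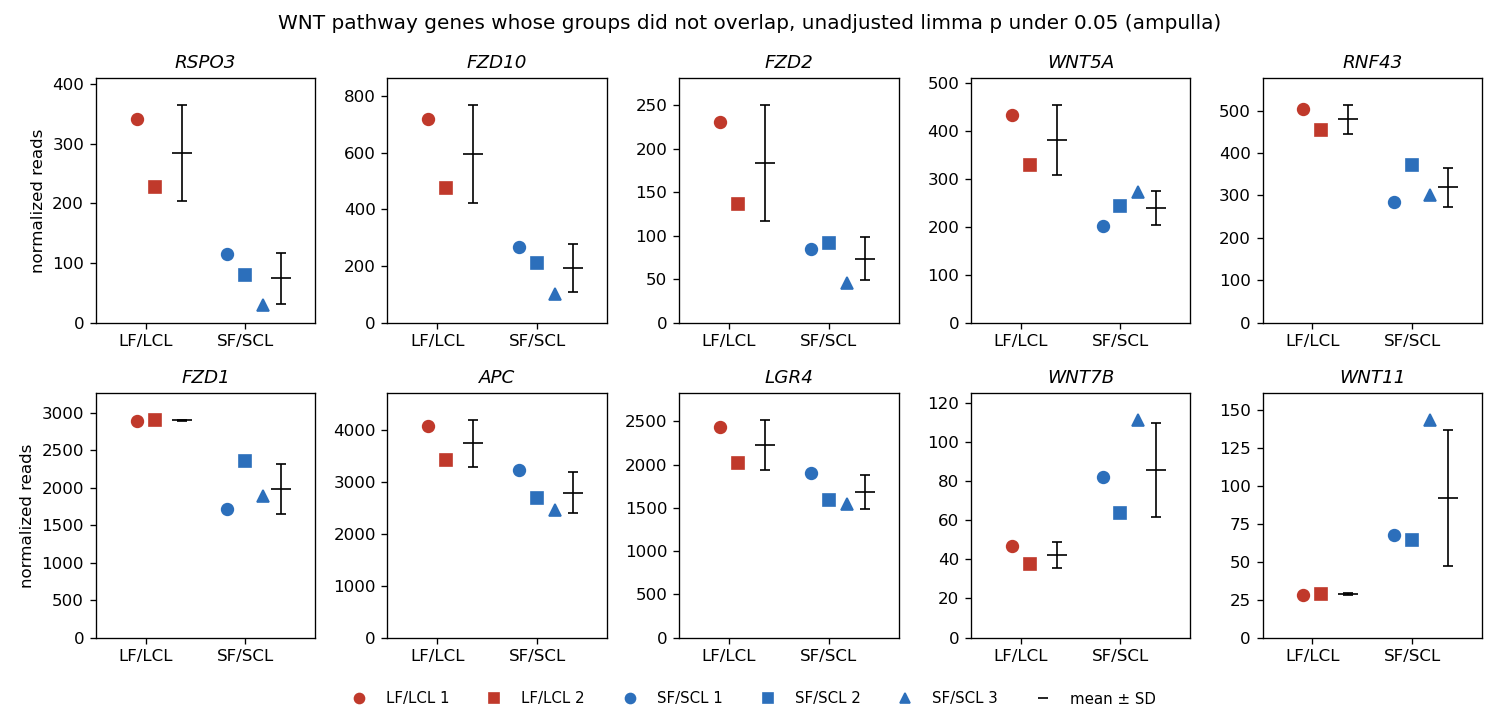
Normalized reads in each library (coloured points) for the 10 WNT pathway genes whose groups did not overlap and whose unadjusted limma p was under 0.05, with the mean ± SD of each group in black (n = 2 LF/LCL, n = 3 SF/SCL); each vertical axis starts at 0. In the first 8 panels both LF/LCL libraries lie above all SF/SCL libraries, and in WNT7B and WNT11 below them.

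The LRP co-receptors and the other receptors had overlapping groups, as did 11050 of all 15815 genes tested. LRP5 had 1460.1 and 1371 normalized reads in LF/LCL against 1252, 1466 and 1263 in SF/SCL, and its log2FC of 0.10 ± 0.11 had a 95% interval from -0.18 to 0.38. LRP6 ran from 660.01 to 1024 normalized reads, with a log2FC of 0.16 ± 0.19. ROR2, a receptor tyrosine kinase for WNT5A, had 254 and 153 against 119.6, 154 and 221 normalized reads, and ROR1 had 151 and 80.3 against 125, 66.8 and 133. In both, LF/LCL replicate 1 and SF/SCL replicate 3 were the highest libraries, so that the spread within each group was larger than the difference between the group means. The entry listed as RYK had from 2.08 to 15.5 normalized reads, from only 40 reads in all.

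Of the 19 ligand genes, 12 were tested, 5 had too few reads and 2, WNT1 and WNT3, had 0 reads in every library, which allows up to 3 reads in each. Among the 12, the mean log2 value was higher in LF/LCL for 5 and in SF/SCL for 7, but for 7 and 5 without SF/SCL replicate 3, and for 3 and 9 without SF/SCL replicate 2. The groups did not overlap for 5 ligands, 1 higher in LF/LCL and 4 lower, beside 30.1% of all genes without overlap, 15% higher and 15.1% lower. WNT5A, a ligand best known for signaling without β-catenin, was the one higher in LF/LCL, with 434 and 330.1 normalized reads there and 202, 243 and 274 in SF/SCL. The log2FC was 0.67 ± 0.21, with a limma adjusted p of 0.346. Its groups overlapped per 10000 smooth muscle marker reads, at 30.3 and 43.7 against 43.0, 48.8 and 141, and per 10000 stromal marker reads, at 46.9 and 84.3 against 47.1, 96.6 and 53.9.

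WNT11, which also acts largely through the β-catenin-independent branch, stood on the other side. It had 28.1 and 29.0 normalized reads in the LF/LCL cows and 67.6, 64.5 and 144 in the SF/SCL cows, so that the LF/LCL libraries were nearly equal and SF/SCL replicate 3 was well above the other SF/SCL libraries. The log2FC was -1.55 ± 0.44, with a 95% interval from -2.63 to -0.47, with a limma adjusted p of 0.323. Without SF/SCL replicate 3 it was -1.18. WNT7B, a ligand made by epithelia in many organs, had 46.9 and 37.7 normalized reads in LF/LCL libraries and 82.1, 63.7 and 112 in SF/SCL libraries, a log2FC of -0.97 ± 0.36, with a limma adjusted p of 0.392. The summed level of the ciliated cell markers was also lower in both LF/LCL libraries, at 68807 and 86666 against 104158, 104521 and 101561, and its part in the values of WNT11 and WNT7B was not tested.

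WNT6 and WNT9A were the other ligands lower in both LF/LCL libraries than in any SF/SCL library. WNT6 had few reads, with 5.86 and 3.87 normalized reads in LF/LCL against 8.32, 22.5 and 35.4 in SF/SCL, and WNT9A had 34.0 and 55.2 against 89.4, 69.9 and 67.6. The log2FC values were -1.79 ± 0.74 and -0.78 ± 0.35, with limma adjusted p-values of 0.435 and 0.471. WNT2B had the highest mean read count of the ligands, not corrected for length. It had 372 and 277 normalized reads in the LF/LCL cows and 487, 312 and 387 in the SF/SCL cows, with overlapping groups and a log2FC of -0.28 ± 0.24. WNT5B had 189.99 and 227 against 185, 147 and 229.7, WNT4, which is needed for Müllerian duct formation, 86.8 and 51.3 against 36.4, 41.2 and 96.6, and WNT7A, which patterns the oviduct and uterus in development, 14.1 and 19.4 against 9.36, 9.33 and 29.0 normalized reads. The groups overlapped in all 3, as they did in WNT16, with 183 and 91.0 against 152, 76.9 and 281, and in WNT8B, with 1.55 to 13.5 normalized reads. WNT2 reached 34.3 normalized reads in SF/SCL replicate 3, against at most 8.71 in the other libraries. Of the ligands with too few reads to be tested, WNT9B had 3 and 8 reads in LF/LCL against 0, 0 and 1 in SF/SCL.

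Ligand export rests on PORCN and WLS. WLS, the carrier that brings WNT proteins to the cell surface, had 3369 and 3064 normalized reads in LF/LCL libraries and 2892, 2615 and 2690.5 in SF/SCL libraries. The groups did not overlap, but the difference was small, with a log2FC of 0.23 ± 0.10, a 95% interval from -0.02 to 0.49, with a limma adjusted p of 0.462. PORCN, the enzyme that attaches the lipid, had 84.4 and 31.0 against 39.5, 39.6 and 54.7 normalized reads, where LF/LCL replicate 1 was the highest and LF/LCL replicate 2 the lowest library.

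The 3 LGR receptors and both ligases that govern Frizzled turnover had a mean log2 value above that of SF/SCL in LF/LCL, also under both other scalings and without any 1 library. LGR4, a receptor for R-spondins, had 2434 and 2018 normalized reads in LF/LCL against 1906, 1593 and 1545 in SF/SCL, without overlap, a log2FC of 0.40 ± 0.14, with a limma adjusted p of 0.378. RNF43, which removes Frizzled and is also induced by WNT signals in other tissues, had 504 and 455 against 285, 372 and 300.5, again without overlap, with a log2FC of 0.59 ± 0.17, with a limma adjusted p of 0.319. Per 10000 reads of the smooth muscle markers RNF43 had 35.2 and 60.3 in LF/LCL against 60.7, 74.7 and 155 in SF/SCL, the reverse order of the groups. A gene with equal levels in all libraries would show this order too, as the muscle sum was higher in both LF/LCL libraries. Per 10000 stromal marker reads RNF43 had 54.6 and 116 against 66.6, 148 and 59.2, with overlap. Its paralog ZNRF3 had 222 and 153 against 117, 157 and 133 normalized reads, where SF/SCL replicate 2 lay just above LF/LCL replicate 2.

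LGR5, a receptor of the same family that marks stem cells in several epithelia, varied widely between cows. It had 657 and 2482 normalized reads in the LF/LCL cows and 873, 1062 and 156 in the SF/SCL cows. The highest library was LF/LCL replicate 2 and the lowest SF/SCL replicate 3, but LF/LCL replicate 1 lay below SF/SCL replicates 1 and 2. The log2FC was 1.28 ± 0.97, with a 95% interval from -1.13 to 3.69. LGR6 was near the limit of detection, with 1.04 to 12.6 normalized reads.

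The secreted inhibitors and related genes, with DKK3 and DKKL1 counted among them, varied widely between cows of the same group. Of 11 entries 10 were tested, 6 had a higher mean log2 value in LF/LCL and 4 a lower one, turning to 4 and 6 without LF/LCL replicate 1. With limma 0 of the 10 had an unadjusted p under 0.05, beside 11.5% of all genes tested. The groups did not overlap in 2 (20%), beside 30.1% of all genes, with 1 higher in LF/LCL and 1 lower. SFRP1 had the highest mean read count, with 4285 and 1317 normalized reads in LF/LCL libraries and 3595, 1683 and 6633 in SF/SCL libraries. It spanned a 3.25-fold range within LF/LCL and a 3.94-fold range within SF/SCL, and its log2FC of -0.53 ± 0.71 had a 95% interval from -2.28 to 1.23. SFRP2 had 3071 and 1438 against 1172, 1241 and 2739, with LF/LCL replicate 1 and SF/SCL replicate 3 again the highest.

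SFRP4 had 57.5 and 35.8 normalized reads in LF/LCL against 45.7, 22.5 and 232 in SF/SCL, where SF/SCL replicate 3 stood far above the other libraries. FRZB, the related Frizzled-like inhibitor, had 358 and 85.2 against 114, 82.4 and 127, and here LF/LCL replicate 1 stood far above the rest. WIF1 had 201 and 563 against 242, 109 and 83.7 normalized reads. Its highest library was LF/LCL replicate 2, as for LGR5, and its groups overlapped, with a log2FC of 1.36 ± 0.60, with a limma adjusted p of 0.467. DKK3, a divergent member of the Dickkopf family, had 812 and 693 against 645, 471 and 622 normalized reads without overlap, a log2FC of 0.39 ± 0.18, with a limma adjusted p of 0.475. DKKL1 had 476 and 141 against 309, 156 and 189.95. DKK1 had few reads, with 7 and 0 before normalization in LF/LCL against 9, 11 and 24 in SF/SCL, and its groups did not overlap. Its log2FC of -2.19 ± 1.11 was the lowest of the 57 entries, with a limma adjusted p of 0.511. DKK2 reached 15.5 and SFRP5 27.9 normalized reads, and DKK4 had 7 reads in all and was not tested.

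**Figure D3:**
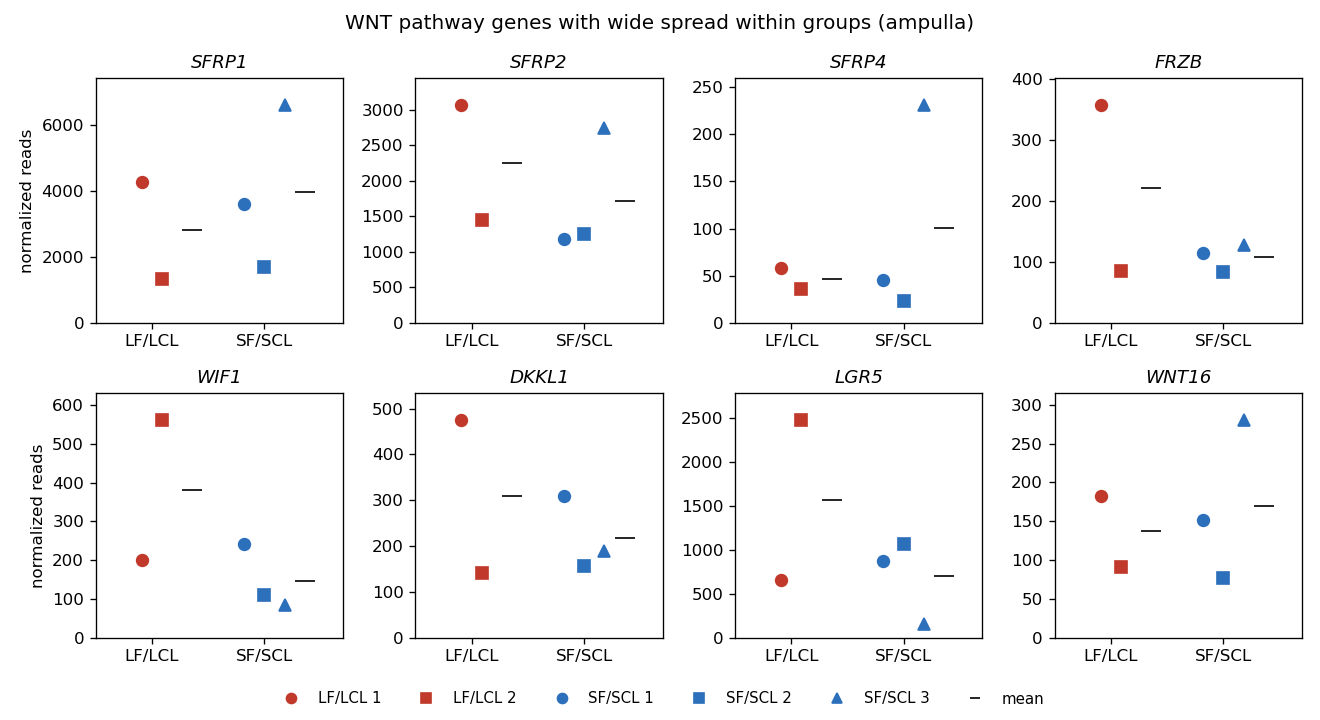
Normalized reads in each library (coloured points) with the group mean (black dash) for 8 WNT pathway genes chosen after their values were seen, 6 secreted modulators, LGR5 and WNT16; each vertical axis starts at 0. LF/LCL replicate 1 or SF/SCL replicate 3 is the highest library in 6 of the 8 panels, and LF/LCL replicate 2 in WIF1 and LGR5.

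This spread was measured over the whole list. The median SD within groups on the log2(value + 1) scale was 0.47 over the 57 entries and 0.23 over all 15815 genes tested. Among genes with a mean of over 100 normalized reads it was 0.28 over 39 entries and 0.17 over 11933 genes. With a mean of over 1000 the values were closer, at 0.186 over 10 entries and 0.135 over 3991 genes. LF/LCL replicate 1 held the highest value of 20 of the 57 entries and SF/SCL replicate 3 that of 18, which is 35.1% and 31.6%, beside 21.9% and 23.7% of all genes. SF/SCL replicate 2 held the lowest value of 17 entries. The stromal fibroblast markers summed to 92426 and 39171 in LF/LCL against 42791, 25185 and 50764 in SF/SCL, so LF/LCL replicate 1 and SF/SCL replicate 3 were also the highest libraries by these markers. ROR1 had exactly their order over the 5 libraries. SFRP1, SFRP2 and AXIN2 shared with them the top pair of libraries. So did ROR2, WNT16, WNT4, SFRP4, FRZB, LEF1, DVL1 and DVL3. ROR1 and AXIN2 were named after their values were seen. Whether stromal content had a part in the spread of these genes was not tested.

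**Figure D4:**
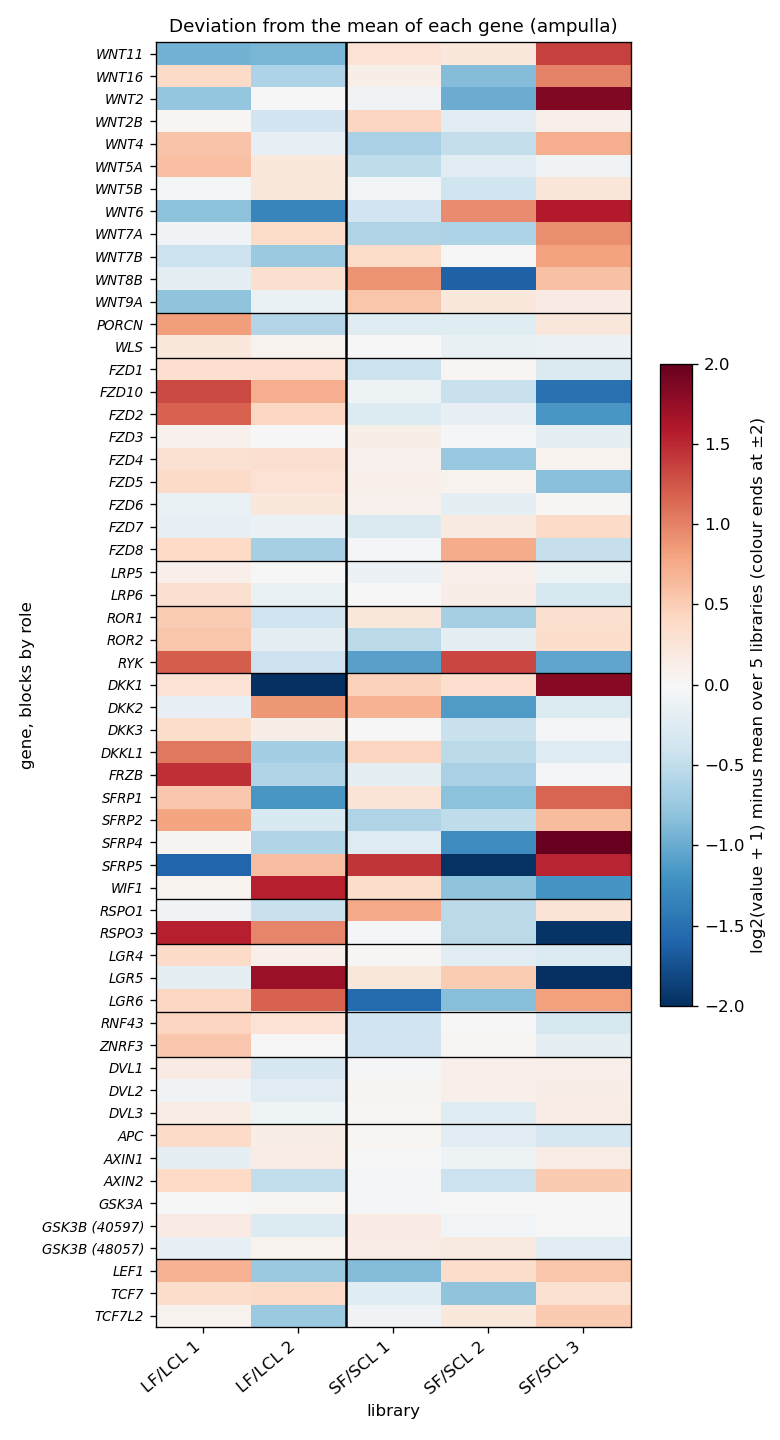
Deviation of log2(value + 1) from the mean of each gene over the 5 libraries (colour) for the 57 WNT pathway entries tested (rows, blocks by role) in each library (columns). FZD10, FZD2 and RSPO3 are red in both LF/LCL columns, WNT11 is blue in both, and SFRP1, SFRP2, ROR1 and AXIN2 are red in LF/LCL replicate 1 and SF/SCL replicate 3.

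**Figure D5:**
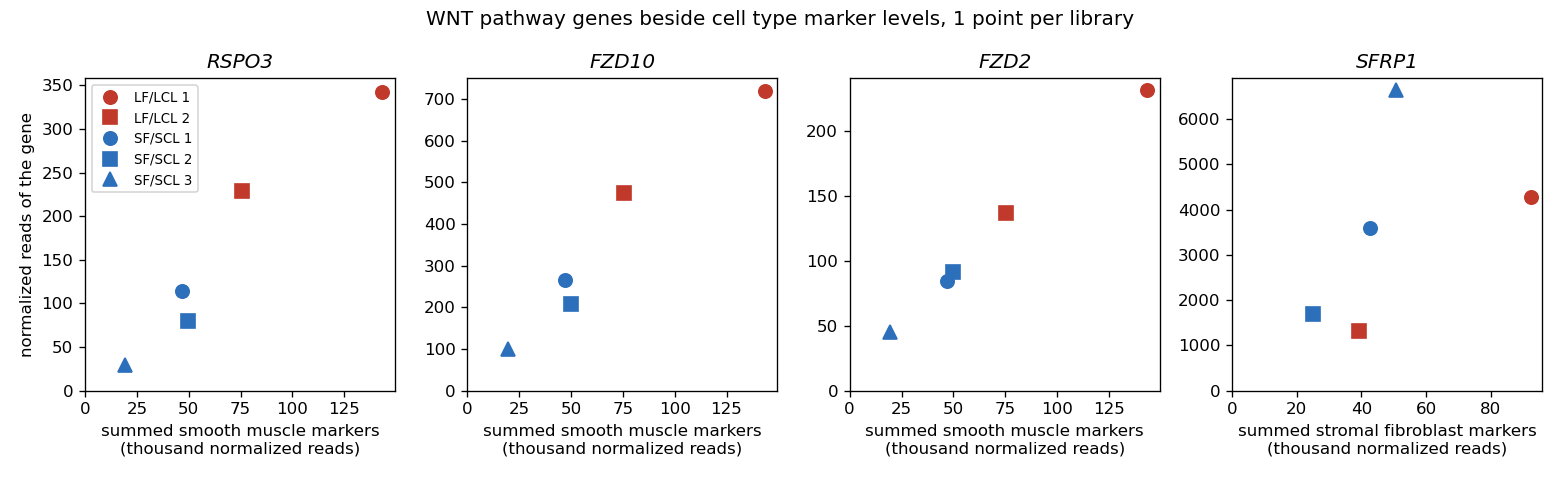
Normalized reads of RSPO3, FZD10, FZD2 and SFRP1 (vertical axes) against the summed normalized reads, in units of 1000, of the smooth muscle or stromal fibroblast markers (horizontal axes), with 1 point per library; all axes start at 0. In the first 3 panels SF/SCL replicate 3 is lowest and LF/LCL replicate 1 highest on both axes; the points are a description of 5 libraries.

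Inside the cell, most transducers had overlapping groups, as did most of all genes tested (11050 of 15815). The Dishevelled genes DVL1 and DVL3, which relay the signal from Frizzled, ran from 475 to 672 and from 734 to 966 normalized reads. For DVL3, with 959 and 816 in LF/LCL against 897, 734 and 966 in SF/SCL, the 95% interval of the log2FC was from -0.34 to 0.42. DVL2 had 286 and 258 against 313, 325 and 333 normalized reads, lower in both LF/LCL libraries, with a log2FC of -0.25 ± 0.14, with a limma adjusted p of 0.568.

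In the destruction complex, APC, the scaffold lost in many intestinal tumours, had 4073 and 3429 normalized reads in the LF/LCL cows and 3230.3, 2689 and 2466 in the SF/SCL cows. The groups did not overlap, and its log2FC was 0.43 ± 0.15, with a limma adjusted p of 0.378. GSK3A, a kinase that marks β-catenin for removal, had close values in all 5 libraries, with 858 and 884 against 835, 863 and 862 normalized reads and a 95% interval of the log2 fold change from -0.21 to 0.27. AXIN1 ran from 935 to 1171. AXIN2, which WNT signals induce as a feedback inhibitor in many tissues, had 497 and 268 against 371, 279.8 and 543 normalized reads, with a log2FC of -0.07 ± 0.37 and an interval from -0.98 to 0.83. The 2 entries listed as GSK3B may split reads and are uncertain, and had log2FC values of -0.09 ± 0.22 and -0.09 ± 0.18.

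The transcription factors that β-catenin joins were measured by 3 entries. TCF7L2 had 362 and 205 normalized reads in LF/LCL libraries and 328, 397 and 495 in SF/SCL libraries, with a log2FC of -0.55 ± 0.29 and overlapping groups. TCF7 had 170.1 and 172 against 112, 75.4 and 164, and both LF/LCL libraries lay above the SF/SCL libraries, of which replicate 3 came close. LEF1 had 109 and 39.7 against 36.4, 85.5 and 98.7, with each group holding low and high libraries. Its log2FC was -0.04 ± 0.61 and changed sign in the count-based fits.

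For 7 of the 57 entries, WLS, FZD3, FZD6, LRP5, DVL3, AXIN1 and GSK3A, the 95% interval of the log2 fold change lay within 0.5 of 0 on both sides, and for 20 entries within 1. For the other 37 the interval left room for a difference beyond 2-fold in one direction or the other.

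Other genes of the pathway were read from a list of 92 symbols, of which 84 were in the table and 75 were tested. With limma 0 of the 75 had an adjusted p under 0.05 and 8 (10.7%) an unadjusted p under 0.05, 7 higher in LF/LCL and 1 lower, beside the 11.5% of all genes. Their median log2FC was -0.01. Among genes known to respond to WNT in other tissues, 13 were tested and 3 (23.1%) had an unadjusted p under 0.05, beside 11.5% of all genes. MYC, a transcription factor that promotes growth, had 511 and 436 normalized reads in LF/LCL against 733, 999 and 1509.97 in SF/SCL, lower in both LF/LCL libraries, with a log2FC of -1.13 ± 0.30. Its adjusted p was 0.306 with limma, 0.0181 with DESeq2 and 0.0314 with the edgeR exact test. NKD1, a feedback inhibitor that binds Dishevelled, had 125 and 77.4 against 28.1, 33.4 and 56.9 normalized reads, higher in both LF/LCL libraries, with a log2FC of 1.36 ± 0.44, with a limma adjusted p of 0.353. CD44, a hyaluronan receptor, had 352 and 308 against 139, 212 and 217, with a log2FC of 0.82 ± 0.25, with a limma adjusted p of 0.333. Among the members known for this response, RNF43 and TCF7 were higher in both LF/LCL libraries, while the groups overlapped for AXIN2, LEF1, LGR5 and ZNRF3. Over all genes tested, the groups did not overlap in 30.1%, a similar share.

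In the planar cell polarity list, which orients cells within a sheet, 14 genes were tested and 2 (14.3%) had an unadjusted p under 0.05. The share over all genes was 11.5%, for this and the next lists. PRICKLE1 had 584 and 365 normalized reads in the LF/LCL cows and 228, 236 and 312 in the SF/SCL cows, and DAAM2, a formin that links Dishevelled to actin, had 349 and 189 against 184, 96.4 and 109. Of the intracellular modulators, 12 were tested and 2 (16.7%) had such a p, NKD1 and DACT3, the latter with 159 and 79.4 against 35.4, 64.5 and 49.4 normalized reads. Of 12 β-catenin partners 2 (16.7%) did, PYGO1, with 423 and 395 against 295, 277 and 244, and AES, with 3124 and 2726 against 2309, 2446 and 2297. All of these were higher in both LF/LCL libraries, and their limma adjusted p-values were from 0.306 to 0.407. β-catenin itself, CTNNB1, had 13064 and 16221 normalized reads in LF/LCL libraries and 13887, 13384 and 11410.1 in SF/SCL libraries, with a log2FC of 0.18 ± 0.15. Among 15 destruction complex partners and 11 extracellular and membrane modulators tested, 0 had an unadjusted p under 0.05 with limma, and 0 were called by edgeR or DESeq2.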

How the data were processed

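Ampulla libraries from 5 cows were analysed. The authors made polyA libraries, sequenced them as read pairs, filtered them with seqyClean, aligned them with TopHat2 2.0.8 and Bowtie2 2.1.0 to the masked cattle UMD assembly, sorted them with SAMtools 0.1.18 and counted unambiguous reads per gene with HTSeq 0.5.4p2 (versions per the labels). Whether counting used strand was not given in the sources used here. The deposited values are a normalized signal, each read count divided by a DESeq 1.12.1 size factor. Dividing by one step per library gave whole reads for 100% of nonzero values (tolerance 0.02 reads), LF/LCL replicates summing to 13418278 and 16171541 reads, SF/SCL replicates to 14785598, 19592174 and 14277845. Genes with few reads are measured less precisely.

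Groups followed the sample titles, replicates were numbered in accession order, and each library came from a different cow. The authors set aside a further LF/LCL library for its few reads. The test was limma 3.58.1 on log2(value + 1), with trend and robust eBayes, over the 15815 genes with a mean over 5, two-sided, with Benjamini-Hochberg adjustment and a threshold of 0.05. For a given ratio of values, the pseudocount makes the difference on this scale smaller where values are low. Alternatives were edgeR 4.0.16 and DESeq2 1.42.0 on the recovered reads, other pseudocounts, filters and scalings, and each library left out. The fits were tested on simulated data.

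The members and gene lists were chosen with earlier results of these data known. Values per library are given for members without group overlap and with an unadjusted p under 0.05, members called by DESeq2 or the edgeR exact test, and the member with the highest mean in each role. Other members were named after their values were seen. Of the other pathway lists, at most 3 genes each with the smallest p are named, and CTNNB1 in addition. Marker lists not reported beside a result are in the closing section.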

Additional observations from a re-analysis of the deposited data

How the results depend on the processing

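With limma 0 of all genes tested, 0 pathway entries and 0 other pathway genes had an adjusted p under 0.05. The edgeR exact test called 335 of all genes, 2 entries (RSPO3 and FZD10) and 1 other pathway gene (MYC), and DESeq2 called 457, 2 and 1, the same members and MYC. The edgeR quasi-likelihood test called 0 in each, with 1828 of all genes at an unadjusted p under 0.05. Log2FC was 1.94 for RSPO3 with both calling tools, and 1.63 and 1.64 for FZD10. Other pseudocounts, filters, scalings and the plain eBayes fit kept the counts of entries called, of entries with an unadjusted p under 0.05 and of entries without overlap within 1.5 times. Some counts by role changed with the number of entries tested. Without the filter 8 of 17 ligands were higher in LF/LCL, against 5 of 12 in the main fit. With a mean of at least 15 the secreted inhibitors and related genes lower in LF/LCL were 2 of 7, against 4 of 10.

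With one library left out, limma called 0 of all genes, 0 entries and 0 other pathway genes each time, 5 to 12 entries had an unadjusted p under 0.05 (5 without LF/LCL replicate 1), and 24 to 34 had groups that did not overlap, against 19, a rise that fewer libraries give by construction. Where 1 LF/LCL library was left, it was assumed to vary like the SF/SCL group. The median log2FC of the entries ranged between -0.035 (LF/LCL replicate 1 left out) and 0.32 (LF/LCL replicate 2 left out). Log2FC ran from -0.062 to 0.67 for ROR2, from -0.076 to 0.16 for DVL3 and from -1.38 to 0.32 for SFRP1, with a changed sign for ROR2 without LF/LCL replicate 1, for DVL3 without LF/LCL replicate 1 (-0.076) and SF/SCL replicate 2 (-0.073), and for SFRP1 without LF/LCL replicate 2. The cause was not tested. None of the 10 members with an unadjusted p under 0.05 changed direction in the 16 alternatives. Genes with few reads were limited by depth. No paired analysis was possible because the labels give no replicate numbers that link cows of both groups.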

Other observations

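Marker lists of further cell types were read in the same libraries, and 30.1% of all genes tested had groups that did not overlap. Proliferation markers were higher in LF/LCL in mean log2 value in 10 of 10, 6 of them without overlap, and summed to between 1649 and 2167 normalized reads there and between 1408 and 1480.5 in SF/SCL. Immune markers were higher in LF/LCL in 9 of 11, with sums of 2458 to 3337 and of 1582 to 2648. Without overlap, 6 of them were higher in LF/LCL and 1 lower. Endothelial markers were higher in 5 of 8, with sums of 5000.3 to 7938.5 and of 5955 to 8654. Mesothelial markers were higher in 1 of 5 tested, with sums of 9393 to 17435 and of 16372 to 21581. Blood markers stayed between 32.2 and 528 normalized reads in sum, with ALAS2 at 0, and markers of the ovary between 57.2 and 125.6, with LHCGR and FSHR at 0. Secretory markers were higher in LF/LCL in 4 of 7. In 3 of the 7, EPCAM, KRT7 and PAX8, the groups did not overlap and LF/LCL was higher, and 0 were lower without overlap. Their sums, mostly OVGP1 reads, were 140190 to 166588 in LF/LCL and 139282 to 168791 in SF/SCL.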
